A study of Mus musculus with 9 samples.

Results

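The lineage reporters tdTom and H2BeGFP were read together with the endogenous genes *Gdf5* and *Pdgfra*. These are 4 of the 54534 features listed for every library, and they were found by their symbols. All mice carried Gdf5-Cre;Tom;Pdgfrα-H2BGFP and were 11 to 12 weeks old. Cells from their digested joints were sorted into Tom+ cells of the *Gdf5* lineage and Tom-GFP+ cells, which lack Tom and have an active *Pdgfra* reporter, and each of the 9 libraries was sequenced with a 5' single-cell kit. The Tom+ cells gave 2 libraries in steady state and 4 from injured knees, and the Tom-GFP+ cells gave 1 steady-state and 2 injured libraries. Within a sort each library was 1 mouse, and the Tom-GFP+ mice were also used for Tom+ libraries, but which Tom+ library each one matches is not given in the sources used here. Tests between the lineages therefore treat as independent some libraries that share a mouse. Injured knees had been opened and the cartilage of the trochlear groove scratched through its full thickness 6 days earlier. There was no group without Cre or without the reporter alleles, and the sorts themselves chose cells by Tom and GFP fluorescence.

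*Gdf5* encodes a secreted ligand of the bone morphogenetic protein family that marks the joint interzone of the embryo. Cre driven by it removes a stop sequence once, so that a cell and its descendants keep making tdTomato after *Gdf5* itself has been switched off. *Pdgfra* encodes the receptor for platelet-derived growth factor that is used as a general fibroblast marker, and its promoter drives a histone H2B fused to green fluorescent protein, which stays in the nucleus. A Cre label therefore reports the past of a cell, whereas the *Pdgfra* reporter follows a promoter that can be active or silent in the adult joint. On GRCm38 (GENCODE vM21), *Gdf5* (ENSMUSG00000038259) lies on the minus strand of chromosome 2 from 155941023 to 155945367 and *Pdgfra* (ENSMUSG00000029231) on the plus strand of chromosome 5 from 75152292 to 75198215. The annotated gene Gm15557 overlaps *Gdf5* on the opposite strand and held 1 UMI (unique molecular identifier, a count of captured RNA molecules) over all cells. Gm42802 and Gm42803, which lie inside *Pdgfra* on the opposite strand, held 36 and 37, and whether counting used strand is not given in the sources used here.

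The promoter of *Pdgfra* is shown because both H2BeGFP and *Pdgfra* read its activity. It is the stretch of 250 bases before the RefSeq start of the gene, chr5:75152001-75152250 on the plus strand of GRCm38.p6, and has a GC content of 54.4%.
Pdgfra promoter: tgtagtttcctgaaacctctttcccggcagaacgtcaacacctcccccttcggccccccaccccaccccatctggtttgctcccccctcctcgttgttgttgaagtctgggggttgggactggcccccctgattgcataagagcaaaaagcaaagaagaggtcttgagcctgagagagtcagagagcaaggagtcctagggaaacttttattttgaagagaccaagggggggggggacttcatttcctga
No letters are in capitals, since none of the 3 motifs searched on both strands is in this window. They were the TATA box (TATAAA), the CAAT box (CCAAT) and the GC box (GGGCGG). Over the 32851 promoters of the same length in the table, 12.4% hold the TATA box, 33.8% the CAAT box and 32.7% the GC box.

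The libraries held 333 to 865 barcodes and 2866464 to 15033902 UMIs, and 4788 of 5161 barcodes were kept. Kept cells had a median of 8050.5 to 8647 UMIs in the 3 steady-state libraries and 12223 to 18567 in the 6 injured ones. The deposited gene list had 2 columns for every library from steady state, as for 1 injured one (Tom+ replicate 1), and 3 columns for the other 5. State therefore nearly coincides with how the files were made, and only Tom+ injured replicate 1 separates them. No pair of libraries shared more than 2 cell barcodes. Cells were put into classes ("gates") by marker lists of 7 or 8 genes that hold none of the 4 genes described here. A cell entered a gate when it had at least 3 of its markers and more than of any other list. This placed 1984 cells in the sublining gate (*Thy1*, *Cd34*, *Pi16*), 800 in the lining gate (*Prg4*, *Clic5*, *Tspan15*) and 1098 in the injury-induced gate (*Lrrc15*, *Adam12*, *Postn*). The chondrocyte-lineage, osteoblast-lineage, tenocyte-lineage and mural gates held 93, 98, 44 and 97 cells, and the immune and endothelial gates 109 and 16. No cell entered the Schwann gate and 429 cells entered none. Levels are UMIs per 1000000 UMIs (CPM) in the summed cells of a gate in a library, and n counts libraries.

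tdTom divided the libraries as their labels do. In cells outside the immune and endothelial gates, a tdTom UMI was found in 84.1% and 91.5% of cells in the 2 Tom+ steady-state libraries and in 93.6% to 97.9% in the 4 injured ones. In the Tom-GFP+ libraries it was found in 4.18% in steady state (exact 95% binomial interval 2.45 to 6.60%, counting error only) and in 8.91% and 4.14% after injury. Of the 72 such Tom-GFP+ cells, 60 had a single tdTom UMI, 9 had 2, and the highest count was 4. The Tom+ median was 3 to 11 UMIs per cell. In sublining cells the level was 412 ± 66.6 CPM (SD, n = 2) in Tom+ and 5.91 CPM in Tom-GFP+ cells in steady state, and 476 ± 163 (n = 4) and 2.25 ± 0.0669 CPM (n = 2) after injury. This is a check of the sort and not a result, since the cells were chosen by this reporter. Only 0.0682% of 11738 genes differed between the lineages in steady-state sublining cells and 0.00852% in injured ones (edgeR quasi-likelihood test, Benjamini-Hochberg adjusted), and tdTom was among them in both (adjusted p = 0.00794 and 1.05e-04).

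Among the stromal gates of the Tom+ libraries, the levels of tdTom overlapped when both states were pooled. It was at 634 ± 167 CPM (n = 6) in lining cells, 613 ± 179 (n = 4) in mural cells, 590.3 ± 9.09 (n = 2) in osteoblast-lineage cells, 465 ± 298 (n = 3) in chondrocyte-lineage cells, 454 ± 134 (n = 6) in sublining cells and 426 ± 114 (n = 4) in injury-induced cells. The only library with 10 tenocyte-lineage cells was at 416 CPM. Neighbours in this order overlapped in every case. By state, lining and sublining cells were at 767 ± 39.2 and 412 ± 66.6 CPM in steady state (n = 2), without overlap. After injury they were at 567 ± 168 and 476 ± 163 CPM (n = 4), which overlap. Whether this gap depended on state was not tested. Against sublining cells of the same library, none of the 6 other gates passed the threshold for tdTom. The lining came nearest, at 0.34 on the log2 scale (SE, the standard error, 0.15, adjusted p = 0.108). The background in these tests was high, since 27.0% of 12568 genes passed between lining and sublining cells. In the injury-induced, chondrocyte-lineage, osteoblast-lineage and mural gates 12.2%, 20.4%, 6.50% and 19.4% of genes passed, and 0.167% in the tenocyte-lineage gate, which rests on 1 library.

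A different pattern was seen in the immune gate of the Tom+ libraries, where 12 of 86 cells (13.95%, exact interval 7.42 to 23.1%) had a tdTom UMI, at a median depth of 8886.5 UMIs. The level was 24.6 and 7.09 CPM in the injured libraries with 48 and 25 such cells. In sublining cells, at a median of 9576 UMIs, the share was 90.6%. The 23 immune cells of the Tom-GFP+ libraries had none (exact upper limit 14.8%). Sublining cells of the Tom+ libraries without a tdTom UMI (117 of 1251) were shallower, with a median of 6397 UMIs.

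**Figure D1:**
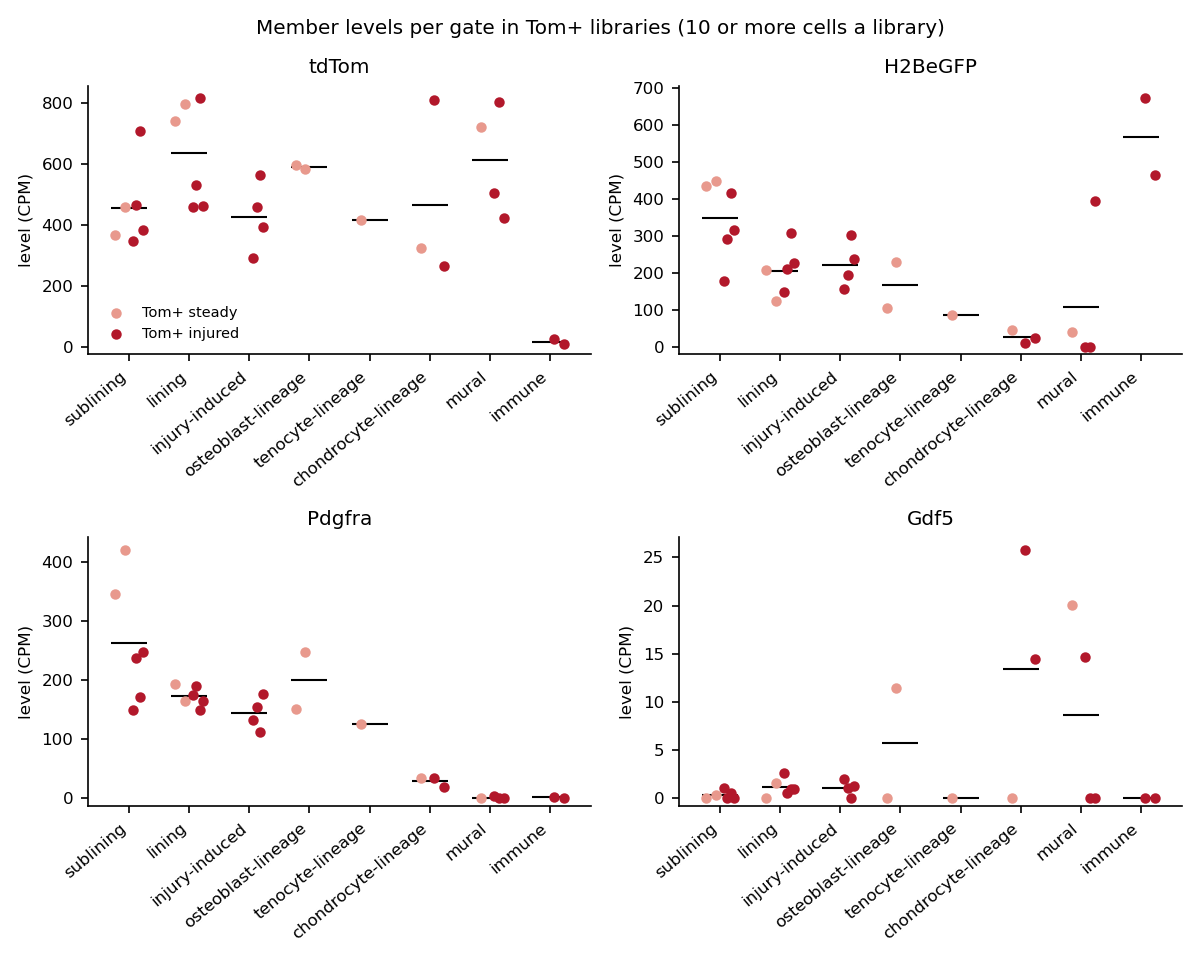
Levels of tdTom, H2BeGFP, *Pdgfra* and *Gdf5* in CPM (y axis, linear, a separate scale in each panel) over the gates of the Tom+ libraries (x axis). Each point is a library with at least 10 cells of that gate, pale for steady state and dark for injured, and the line is the mean. tdTom was below 25 CPM only in the immune gate, whereas H2BeGFP was highest there and *Pdgfra* lowest there and in the mural gate.

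*Pdgfra* was highest in sublining cells and all but absent from mural and immune cells. In the 2 steady-state Tom+ libraries it was at 347 and 421 CPM in sublining cells, and in the 4 injured ones at 149, 238, 172 and 249 CPM. In lining cells its level was 173 ± 16.4 CPM (n = 6), and every library lay between 150 and 193. It was lower than in sublining cells over both states (log2 fold change -0.65, SE 0.16, adjusted p = 0.00276, edgeR). The gap was wider in steady state, at 178 ± 20.4 against 384 ± 52.4 CPM (n = 2), than after injury, at 170.2 ± 16.7 against 202 ± 49.0 CPM (n = 4), and in Tom+ injured replicate 1 the lining was higher (176 against 149 CPM). Whether it depended on state was not tested. Injury-induced cells were at 144 ± 28.2 CPM (n = 4, log2 fold change -0.71, adjusted p = 0.0127), a call that was lost without Tom+ injured replicate 2 (adjusted p = 0.0634) or replicate 3 (adjusted p = 0.0665). Chondrocyte-lineage cells, at 19.3, 34.4 and 34.3 CPM in their 3 libraries, were far below (log2 fold change -3.32, SE 0.36, adjusted p = 7.47e-08). Mural cells, the smooth muscle and pericytes of vessel walls, held 2 *Pdgfra* UMIs in 97 cells (log2 fold change -6.99, SE 0.49, adjusted p = 1.97e-11). Osteoblast-lineage cells were at 152 and 248 CPM, and this difference did not pass (log2 fold change -0.92, SE 0.29, adjusted p = 0.0594), although it did in several other settings. In the single tenocyte-lineage sum *Pdgfra* was at 126 CPM (adjusted p = 0.244).

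H2BeGFP went the same way in the stromal gates. Sublining cells of the Tom+ libraries were at 348 ± 105 CPM (n = 6), injury-induced cells at 222 ± 62.3 (n = 4), lining cells at 204 ± 64.1 (n = 6) and osteoblast-lineage cells at 166 ± 87.4 (n = 2). The tenocyte-lineage sum was at 86.4 CPM. Chondrocyte-lineage cells had 8.59, 24.1 and 44.1 CPM, none of them near a sublining value, and this difference passed (log2 fold change -3.99, SE 0.77, adjusted p = 2.85e-04). So did that of mural cells (log2 fold change -2.65, SE 0.60, adjusted p = 0.00171). The lower values in lining and injury-induced cells did not pass (adjusted p = 0.0842 and 0.406). The difference of the lining did pass without Tom+ injured replicate 4 (log2 fold change -0.93, adjusted p = 0.00739) and under several other settings.

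In mural cells H2BeGFP was at 0 in 2 injured libraries and at 40.1 CPM in a steady-state one, but at 393 CPM in Tom+ injured replicate 4, which had 11 mural cells. In that library all 42 H2BeGFP UMIs came from 4 cells, each of which also had 6 or 7 of the 8 endothelial markers. Over all Tom+ libraries, the 92 mural cells with fewer than 3 endothelial markers held 2 H2BeGFP UMIs (2.17 CPM). Without that library the log2 fold change against sublining cells was -6.92 (adjusted p = 2.62e-07).

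**Figure D2:**
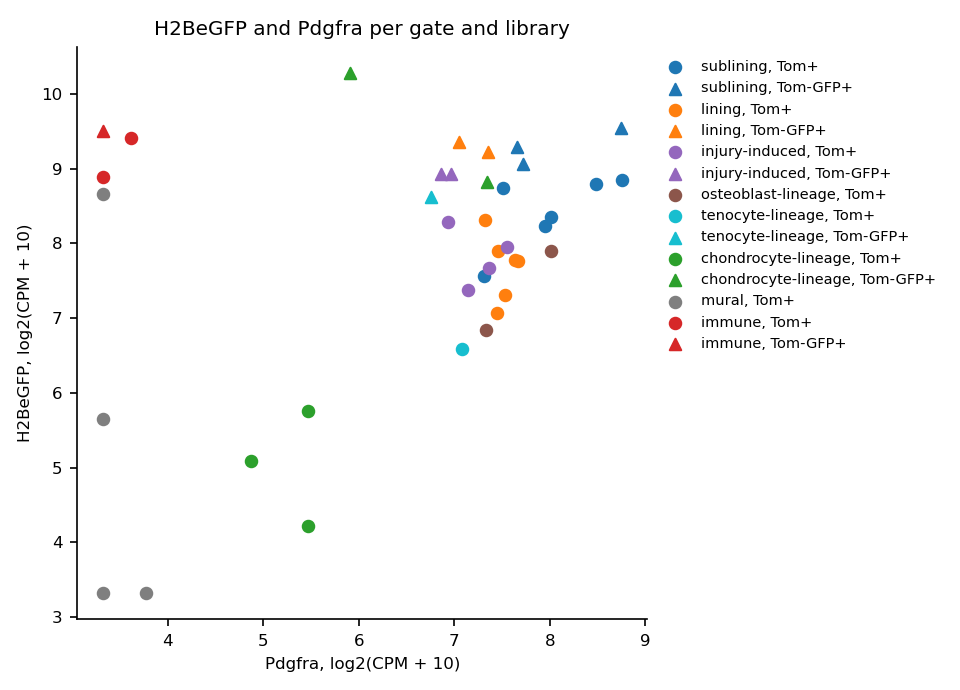
H2BeGFP (y axis) against *Pdgfra* (x axis), both as log2(CPM + 10), for each gate in each library with at least 10 cells. Circles are Tom+ and triangles Tom-GFP+ libraries, coloured by gate. The stromal sums of the Tom+ libraries run from mural cells at the lower left to sublining cells at the upper right, and the immune sums lie at the upper left together with the mural sum of Tom+ injured replicate 4.

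Over the 26 sums of stromal gates in the Tom+ libraries, H2BeGFP and *Pdgfra* were correlated with Pearson's r = 0.73 and Spearman's rho = 0.66 on the log2(CPM + 10) scale. These points share libraries, depth and cells from the same mice, so the value is a description and has no test. With the 2 immune sums it was 0.45 and 0.37. In the 10 sums of the Tom-GFP+ libraries, where every cell had been chosen for GFP, it was -0.18 and 0.22. tdTom and *Pdgfra* had a correlation of -0.12 over the same 26 sums, and tdTom and *Gdf5* one of 0.16. *Gdf5* was at most 2.63 CPM in lining, 1.06 in sublining and 2.00 in injury-induced sums. These lie below the 10 CPM that the scale adds, so the value for *Gdf5* is not read.

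Cell by cell, H2BeGFP and *Pdgfra* were not always detected together. Each cell was thinned to 4000 UMIs, which left out 94 of the 869 Tom+ stromal cells in steady state and 61 of 2627 after injury. In steady-state Tom+ sublining cells (542 thinned), both H2BeGFP and *Pdgfra* were detected in 58.7%, H2BeGFP alone in 13.1%, *Pdgfra* alone in 12.4% and neither in 15.9%. *Pdgfra* was found in 81.7% of the cells with H2BeGFP and in 43.8% of those without. In injured Tom+ sublining cells (632 thinned), both were found in 39.2%, H2BeGFP alone in 24.5% and *Pdgfra* alone in 15.7%. These thinned cells held few UMIs, on average 1.71 of H2BeGFP and 1.56 of *Pdgfra* in steady state. After injury they held 1.27 and 0.90. At such counts a cell can lack a UMI of either gene by sampling alone. How closely the genes agree within a cell is therefore not read from these shares. Without thinning, H2BeGFP UMIs were found in 86.6% of steady-state and 84.3% of injured Tom+ sublining cells, and *Pdgfra* UMIs in 86.1% and 80.2%. Mural cells, which should lack *Pdgfra*, give the background: it was found in 2.47% of 81 injured mural cells at a median of 9310 UMIs.

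Cells of the immune gate carried H2BeGFP without *Pdgfra*. In the Tom+ libraries, 79 of 86 immune cells had an H2BeGFP UMI (91.9%, exact interval 83.9 to 96.7%), with a median of 4 UMIs per cell, and 1 had a *Pdgfra* UMI. The H2BeGFP level was 672 and 464 CPM in Tom+ injured replicates 3 and 4, above the 417 and 317 CPM of sublining cells in those same libraries. In the Tom-GFP+ libraries 18 of 23 immune cells had H2BeGFP and none had *Pdgfra*. The same was seen in the 16 cells of the endothelial gate, all from Tom+ libraries: all 16 had H2BeGFP, at 980 CPM over their sum, 1 had *Pdgfra*, and 13 had tdTom. In mural cells, by contrast, an H2BeGFP UMI was found in 6 of 97. *Dcn*, a proteoglycan gene of fibroblasts, was at 127 CPM in the immune cells of the Tom+ libraries, 74.4 CPM in mural cells and 13354 CPM in sublining cells. UMIs of *Col1a2*, a collagen gene of fibroblasts, were found in 14 of 48 immune cells of Tom+ injured replicate 3 and in 15 of 25 of replicate 4. In replicate 1 they were in 1 of 3 immune cells, and in replicate 2 in 0 of 7, all 7 of which had H2BeGFP. The 3 immune cells of Tom+ steady-state replicate 1 had H2BeGFP and no *Col1a2* UMI. Endothelial cells had a median of 12 UMIs of *Col1a1* in the 3 cells of Tom+ injured replicate 1 and of 9 in the 5 cells of replicate 4, and all of these 8 cells had *Col1a2*. In the 4 endothelial cells of replicate 3 the median was 1, and 2 of them had *Col1a2*. The 1 endothelial cell of replicate 2 had *Col1a2* and 10 *Col1a1* UMIs. H2BeGFP in endothelial cells was at 322 CPM in replicate 1, 890 in replicate 2, 1677 in replicate 3 and 1127 in replicate 4. The 1 endothelial cell of Tom+ steady-state replicate 1 had no *Col1a2* UMI and H2BeGFP at 1380 CPM. The 2 of Tom+ steady-state replicate 2 both had *Col1a2*, and H2BeGFP was at 657 CPM. Of the immune cells in Tom+ injured replicate 3, 7 of 48 were among the highest 5% of doublet scores in their library. In injured replicates 1, 2 and 4 this was so for 1 of 3, 0 of 7 and 1 of 25. For endothelial cells it was so for 1 of 4 in Tom+ injured replicate 3 and 1 of 5 in replicate 4. In Tom-GFP+ injured replicates 1 and 2, *Col1a2* UMIs were in 5 of 9 and 4 of 11 immune cells. Among these, 1 of 9 and 3 of 11 were in the highest 5% of doublet scores. No test was made for these gates, which were looked at after their values were seen, and the part of doublets and of fibroblast RNA in these cells was not tested.

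Chondrocyte-lineage cells differed between the sorts. In the Tom-GFP+ libraries they had H2BeGFP at 1232 CPM in injured replicate 1 and 442 CPM in the steady-state library, and H2BeGFP UMIs in 27 of 30 cells. In the Tom+ libraries 12 of 63 had one. *Pdgfra* UMIs were found in 14 of the 30 Tom-GFP+ and in 15 of the 63 Tom+ cells, at similar median depths of 9473 and 9075 UMIs. GFP had been part of the Tom-GFP+ sort, so that the H2BeGFP values follow from it, and the sort may also bear on the *Pdgfra* shares. For steady state, the paper describes Tom+ cells of this lineage as superficial zone chondrocytes. It describes the Tom- ones as mature or hypertrophic and as likely to come from the growth plate. The gate may therefore hold different cells in the 2 sorts. The ratio of H2BeGFP to *Pdgfra* UMIs is given as a description, since Tom-GFP+ cells were sorted on GFP and Tom+ cells were not. In steady-state sublining cells it was 1.16 ± 0.13 (n = 2) in Tom+ and 1.76 in Tom-GFP+ cells, after injury 1.53 ± 0.60 (n = 4) and 2.90 ± 0.44 (n = 2), in injured lining cells 1.34 ± 0.52 and 4.55 ± 1.03, and in Tom-GFP+ chondrocyte-lineage cells 24.7, over 6 *Pdgfra* UMIs, and 2.89, over 19. The UMIs of different genes are captured with different efficiency, so a ratio has no meaning as a level.

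*Gdf5* itself was rare in the adult cells. The 4788 cells held 111 *Gdf5* UMIs in 86 cells, and 72 of these cells had a single UMI. By group, *Gdf5* was found in 2.53% of Tom+ injured cells (69 of 2723, exact interval 1.98 to 3.196%), 1.14% of Tom+ steady-state cells (10 of 875), 0.641% of Tom-GFP+ injured cells (5 of 780) and 0.488% of Tom-GFP+ steady-state cells (2 of 410). Tom+ injured replicate 1, the deepest library, gave 35 of the 64 stromal *Gdf5* cells of its group, in 4.65% of its cells, and the other 3 injured libraries had them in 1.22% to 2.15%. Over stromal cells alone, the Tom+ injured share was 2.44% (64 of 2627). Thinned to 4000 UMIs, the stromal share was 0.896% in Tom+ injured and 0.258% in Tom+ steady-state cells, the latter resting on 2 cells. Without Tom+ injured replicate 1, left out after the data were seen, the injured stromal share was 1.55% (29 of 1874). Thinned, it was 0.331% (6 of 1813), so that the higher share after injury rested largely on this library. Of the 79 *Gdf5* cells in the Tom+ libraries 73 also had a tdTom UMI. Over all stromal cells of these libraries the share with tdTom was 84.1% to 97.9%, so no link between the genes is read from this count.

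By gate, *Gdf5* was found in 10 of 93 chondrocyte-lineage cells (10.8%, exact interval 5.28 to 18.9%), 9 of 97 mural cells (9.28%), 5 of 16 endothelial cells (31.2%, exact interval 11.0 to 58.7%) and 3 of 44 tenocyte-lineage cells. It was found in 24 of 1098 injury-induced cells (2.19%), 13 of 800 lining cells (1.62%), 1 of 98 osteoblast-lineage cells and 4 of 1984 sublining cells (0.202%), and in none of 109 immune cells (exact upper limit 3.33% for cells with a UMI, which is no limit on cells that express the gene). In the Tom+ libraries, 1251 sublining cells held 3 *Gdf5* UMIs (0.241 CPM). Chondrocyte-lineage cells held 18 UMIs in 63 cells (27.4 CPM), 9 of them in 1 cell, and 13.9 CPM without it. The ratio to sublining cells was 113 with an exact counting interval of 33.1 to 601. For mural cells, with 12 UMIs in 97 cells (11.9 CPM), it was 49.3 (13.3 to 272), for lining cells with 14 UMIs 4.78 (1.34 to 26.0) and for injury-induced cells with 25 UMIs 6.31 (1.93 to 32.6). These intervals cover counting error only.

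In the fit over gates, the higher *Gdf5* of chondrocyte-lineage and mural cells passed (adjusted p = 0.00225 and 0.0165, edgeR). The first was lost without Tom+ injured replicate 4 (adjusted p = 0.0668) and the second without Tom+ injured replicate 1 (adjusted p = 0.467), which held 8 of the 12 mural UMIs. Osteoblast-lineage cells also passed (adjusted p = 0.0379), but all 4 of their UMIs came from 1 cell of Tom+ steady-state replicate 2, and without that library the adjusted p was 1. Lining and injury-induced cells did not pass (adjusted p = 0.251 and 0.395). *Gdf5* passed the filter on low counts only in this fit, and so through the gates where it was higher. For injury and lineage its counts were too low to test.

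**Figure D3:**
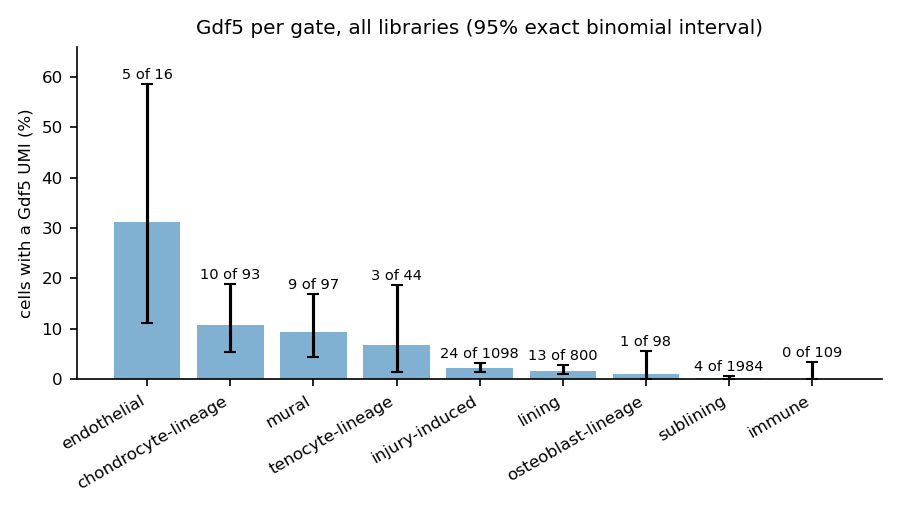
Share of cells with a *Gdf5* UMI (y axis, %) in each gate over all 9 libraries, with exact 95% binomial intervals as error bars and the number of cells with a UMI of all cells above each bar. Cells are not thinned, and gates differ in depth. Endothelial, chondrocyte-lineage and mural cells stand highest, and the intervals of the injury-induced, lining, sublining and immune gates lie below 4%.

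The response to injury was then compared in sublining cells. *Pdgfra* was lower after injury in Tom+ sublining cells, at 384 ± 52.4 CPM (n = 2) in steady state and 202 ± 49.0 CPM (n = 4) after injury, and the groups did not overlap (log2 fold change -0.93, SE 0.23, adjusted p = 0.0296, edgeR). In this comparison 8.66% of 11738 genes passed. The call was lost without Tom+ steady-state replicate 1 (adjusted p = 0.0968) or 2 (0.214), without Tom+ injured replicate 3 (0.0791) and with the replicate number as a block (0.0574), while the log2 fold change stayed between -1.06 and -0.81 with each library left out in turn. H2BeGFP was at 435 and 449 CPM in steady state and at 179, 290.1, 417 and 317 CPM after injury. These groups did not overlap either, but the difference did not pass (log2 fold change -0.55, SE 0.29, adjusted p = 0.279). tdTom was at 365 and 459 CPM in steady state and at 345, 466, 708 and 383 CPM after injury, which overlap (log2 fold change 0.21, SE 0.29, adjusted p = 0.714). Its sign changed without Tom+ injured replicate 3, the library with 708 CPM, with the replicate block (-0.08) and with the gene list format as a covariate (-0.32). With that covariate the log2 fold change of H2BeGFP was -1.37 and that of *Pdgfra* -1.43. The injury effect in Tom+ cells then rests on Tom+ injured replicate 1 against the 2 steady-state libraries, since only these share a list format. This replicate had the lowest level of both genes among the Tom+ injured libraries, so these larger effects are not those of 4 libraries.

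In Tom-GFP+ sublining cells *Pdgfra* was at 421 CPM in the steady-state library and at 192 and 201 CPM after injury. The log2 fold change of -1.09 (SE 0.32) was as large as in Tom+ cells but did not pass (adjusted p = 0.106), where 2.84% of genes did. H2BeGFP was at 739 CPM in steady state and at 617 and 522 CPM after injury (log2 fold change -0.37, SE 0.40, adjusted p = 0.717). The difference between the injury effects of the 2 lineages was -0.16 for *Pdgfra* (SE 0.40) and 0.18 for H2BeGFP (SE 0.50), with adjusted p = 1.00 for both. Of all genes 0% passed this test by edgeR and 0 by DESeq2, against 239 at an unadjusted p under 0.05. Between the lineages *Pdgfra* differed by a log2 fold change of 0.08 (SE 0.23, adjusted p = 0.998) after injury and -0.08 (SE 0.33, adjusted p = 1) in steady state. The steady-state Tom-GFP+ cells are 1 library, whose spread was taken from the other groups. Markers of other cell types were read in the same sums. The mural list was at 34.6 to 46.6 CPM in Tom+ steady-state and 43.7 to 128 CPM in Tom+ injured sublining cells, and at 29.2 and 63.1 to 73.4 CPM in Tom-GFP+ cells. The chondrocyte-lineage list was at 2.37 to 17.4 and 16.2 to 57.2 CPM in Tom+ cells, and at 3.82 and 9.21 to 62.3 CPM in Tom-GFP+ cells. Both lists mark gates that were low in *Pdgfra*. Their highest values were after injury in both sorts, but in Tom+ cells the ranges of the 2 states overlapped. The immune list was at 0.474 to 1.36 CPM in Tom+ steady-state and 0 to 3.23 CPM in Tom+ injured cells, and at 0.695 and 1.84 to 4.97 CPM in Tom-GFP+ cells, and the endothelial list was at 1.06 to 4.14 CPM over all libraries. In each group 2 to 6 of the 8 immune and 3 to 5 of the 8 endothelial markers had no UMI. The muscle list was at 2.69 to 10.8 CPM, and the 5 erythroid genes at 0.340 to 8.29 CPM in 8 libraries and at 149 CPM in a Tom-GFP+ injured one. Their part in these results was not tested.

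**Figure D4:**
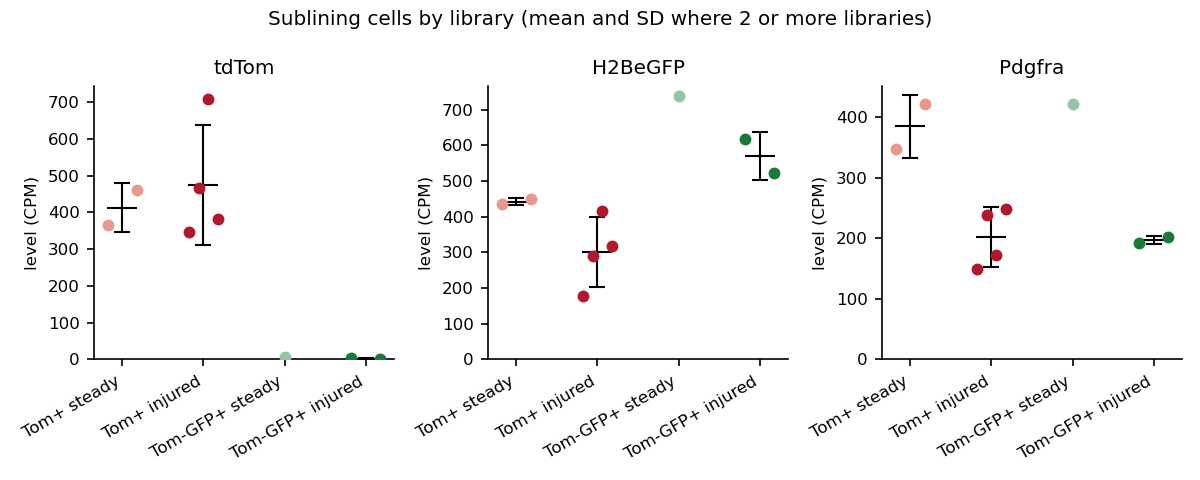
Levels of tdTom, H2BeGFP and *Pdgfra* in sublining cells in CPM (y axis, from 0) for each library of the 4 groups (x axis). Points are libraries, and bars give the mean and SD where a group has more than 1 library. *Pdgfra* lay at or below 249 CPM in every injured library and at or above 347 CPM in every steady-state one.

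In Tom+ lining cells *Pdgfra* did not separate the groups. It was at 193 and 164 CPM in steady state and at 176, 190, 150 and 165 CPM after injury, which overlap (log2 fold change -0.06, SE 0.18, adjusted p = 0.903). H2BeGFP was at 207 and 125 CPM in steady state and 149 to 307 CPM after injury (log2 fold change 0.46, SE 0.29, adjusted p = 0.404), and tdTom at 739 and 795 CPM and at 459 to 815 CPM (log2 fold change -0.44, adjusted p = 0.380). In this comparison 4.26% of 9710 genes passed (414). With the gene list format as a covariate, where Tom+ injured replicate 1 alone stands against steady state, H2BeGFP was at -0.13. Whether the effect of injury on *Pdgfra* differed between sublining and lining cells was not tested. The steady-state lining sums rested on 24 and 48 cells. In simulated counts, this fit recovered 13% of the genes changed by 1 on the log2 scale and 58% of those changed by 2. The fit for injury in Tom+ sublining cells recovered 18% and 79%, so that most changes of 1 were missed in both.

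Within the sublining, the universal fibroblasts (cells with at least 3 of *Dpp4*, *Cd248*, *Sema3c* and 4 further markers) and the other cells had levels that overlapped. *Pdgfra* was at 258 ± 110 CPM (n = 6) in universal and 270 ± 95.9 CPM in other sublining cells of the Tom+ libraries, H2BeGFP at 344 ± 116 and 355 ± 94.1 CPM, and tdTom at 422 ± 119 and 504 ± 167 CPM. These ranges pool both states and do not use that both parts come from the same libraries. By state, tdTom was at 411 ± 87.8 CPM in universal and 414 ± 35.5 CPM in other cells in steady state (n = 2). After injury it was at 428 ± 145 and 548 ± 195 CPM (n = 4). None of these differences was tested.

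H2BeGFP carries the coding sequence of a core histone, whose natural genes are transcribed mainly during DNA synthesis, so its level was set beside the cell cycle. The reporter is driven by the *Pdgfra* promoter and not by that of a histone gene, so it need not follow the H2B genes. In the 4 Tom+ injured libraries, 150, 55, 22 and 16 stromal cells had at least 3 of 8 cycling markers. H2BeGFP was at 181, 181, 340 and 233 CPM in cycling cells and at 140, 224, 332 and 268 CPM in the others of replicates 1 to 4, without a common direction (log2 fold change -0.07, SE 0.13, adjusted p = 0.756). The endogenous H2B genes together were higher in the cycling cells of all 4 libraries, at 170 ± 60.8 against 117 ± 34.6 CPM. *Hist1h2bc*, which held 5692 of their UMIs, did not pass (log2 fold change -0.34, adjusted p = 0.136). The other 10 H2B genes tested held 22 to 136 UMIs each in all cells and most of them did not pass the filter on low counts in the other fits, so their calls are not counted as support. tdTom was lower in the cycling cells of all 4 libraries, at 249, 377, 403 and 333 CPM against 358, 509, 779 and 411 CPM (log2 fold change -0.62, SE 0.11, adjusted p = 0.00131). *Pdgfra* was at 140, 152, 101 and 133 CPM in cycling and at 134, 185, 147 and 200.1 CPM in other cells, which did not pass (log2 fold change -0.35, adjusted p = 0.0867). In this comparison 20.3% of 12681 genes passed, so that 1 call among 3 members is not far from the background. Cycling cells were deeper, with medians of 18777 to 24649 UMIs against 12122 to 17630. The cycling and the other cells were not matched for gate, and the part of a different mix of gates was not tested.

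**Figure D5:**
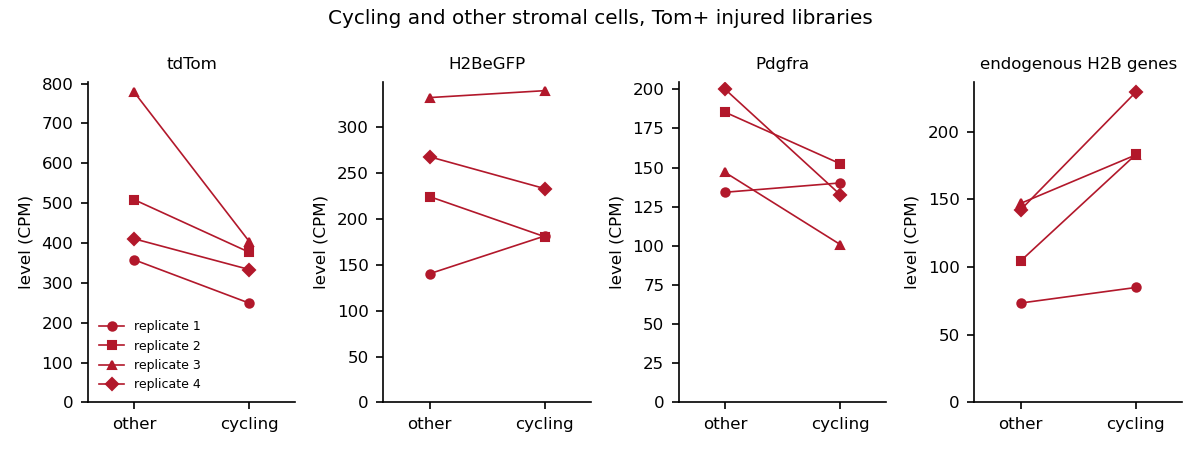
Levels in CPM (y axis, from 0) of tdTom, H2BeGFP, *Pdgfra* and the summed endogenous H2B genes in cycling and other stromal cells (x axis) of the 4 Tom+ injured libraries, each library joined by a line. tdTom falls in all 4 libraries and the H2B genes rise in all 4, from 73.4 to 147 CPM up to 85.0 to 229 CPM, while H2BeGFP shows no common direction.

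The genes whose pattern was most like each member were taken from the 21 sums of a gate in a Tom+ library with at least 20 cells, over 5523 genes. For *Pdgfra* they were *Lpar1* (Pearson r = 0.97), *Dcn* (0.97), *Fbln7* (0.94), *Igfbp6* (0.94) and *Htra3* (0.94), and H2BeGFP came at rank 1094 with r = 0.47. For H2BeGFP they included *Ctsl* (0.92), *Dab2* (0.92), *Sppl2a* (0.89) and *Pdpn* (0.88), and *Pdgfra* came at rank 289. For tdTom they were *Gna11* (0.96), *Dag1* (0.95), *Fkbp9* (0.95), *Prss23* (0.94) and *Rcn2* (0.94), and *Pdgfra* came at rank 1178. The sums include immune cells, and the points share libraries. *Gdf5* had 54 UMIs in these sums and its list is not read.

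The other genes of the PDGF pathway (4 ligands, the receptor gene *Pdgfrb* and the receptor-like *Pdgfrl*) had patterns of their own. In mural cells of the Tom+ libraries, 3 of 6 were higher and 2 lower than in sublining cells, where 19.4% of all genes passed. *Pdgfrb*, the other PDGF receptor and a marker of pericytes, was at 347 ± 42.1 CPM (n = 4) against 63.7 ± 8.56 CPM (n = 6, log2 fold change 1.99, adjusted p = 2.40e-07), and the ligand *Pdgfa* at 359 ± 139 against 45.9 ± 17.05 CPM (log2 fold change 2.51, adjusted p = 5.99e-11). The ligand *Pdgfb* was at 36.9 ± 34.4 CPM in mural sums and had no UMI in the sublining sums. It was tested over gates but not in the sublining and lining fits. Only mural and immune sums held its UMIs, so it passed the filter on low counts through them. Its part in the counts over gates is read as a description. In lining cells, against 27.0% of all genes, 1 of 6 was higher (*Pdgfa*, log2 fold change 1.27, adjusted p = 1.66e-07) and 3 were lower, *Pdgfrb* most (14.1 ± 6.15 CPM, log2 fold change -2.42, adjusted p = 1.74e-09). In injury-induced cells *Pdgfa* and *Pdgfc* were higher (log2 fold change 0.97 and 0.95) and *Pdgfd* lower, against 12.2% of all genes. In chondrocyte-lineage cells 2 were lower (20.4% of all genes passed) and in osteoblast-lineage cells 1 was higher (6.50%). In cycling cells 1 of 5 was lower, which is near the 20.3% of all genes. None of the 5 tested passed after injury in sublining or lining cells, where the median log2 fold change was 0.29 in Tom+ sublining cells beside 0.01 over all genes tested, or between the lineages.

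Of the 13 genes of the GDF and BMP list (ligands, receptors, Smads and inhibitors), 11 were tested over gates but 6 in the sublining and lining fits, so that some passed the filter through the gates where they are high, and their calls are read as descriptions. The counts were near the background of 20.4% of all genes in chondrocyte-lineage and 27.0% in lining cells. In chondrocyte-lineage cells 2 were higher, the secreted BMP inhibitor *Nog* at 59.9 ± 36.1 CPM (n = 3) against 1.50 ± 1.56 CPM in sublining cells (n = 6, log2 fold change 5.57, adjusted p = 6.28e-06) and the ligand *Gdf6* at 55.7 ± 31.3 against 0.706 ± 1.49 CPM (log2 fold change 5.19, adjusted p = 0.0182). *Gdf6* was also at 142 CPM in the lining cells of a steady-state Tom+ library, and at 0 in those of the other 5. In osteoblast-lineage cells *Nog* and the inhibitor *Grem1* were higher and *Chrd* lower (6.50% of all genes passed). *Grem1* was at 37.0 ± 52.4 CPM in them (n = 2), an SD above the mean, so its 2 libraries differed widely. In mural cells *Chrd* was lower (19.4%). In lining cells the receptor *Acvr2a* and *Smad1* were lower (log2 fold change -1.62 and -0.68) and *Smad9* was higher (1.81), and in injury-induced cells *Acvr2a* was lower (-1.66). *Chrd* was the 1 of 9 that was lower in cycling cells, and none of the 6 tested passed after injury or between lineages. Of the 10 interzone genes, 9 were tested over gates but 7 in the sublining fit and 5 in the lining fit. *Erg* and *Wnt4* were in neither of these. They may have passed the filter through the gates where they are high, and their calls are read as descriptions. In chondrocyte-lineage cells, against 20.4% of all genes, 2 were higher (*Erg* and *Wnt4*) and 7 lower, among them *Col3a1* (log2 fold change -5.92, adjusted p = 1.24e-11). In lining cells 3 were higher (*Erg*, *Wnt4* and *Cd44*) and 5 lower, against 27.0% of all genes. In mural cells 6 were lower, against 19.4%, and in osteoblast-lineage cells 4, against 6.50%. In injury-induced cells *Erg* was higher and *Osr2* lower, against 12.2%. After injury the fibrillar collagen *Col3a1* rose in Tom+ sublining cells, from 4125 ± 785 (n = 2) to 12413 ± 972 CPM (n = 4, log2 fold change 1.58, adjusted p = 0.00173), in Tom-GFP+ sublining cells (1.54, adjusted p = 0.0224, with 1 steady-state library whose spread was taken from the other groups) and in Tom+ lining cells (1.81, adjusted p = 0.00824), and *Cd44*, a hyaluronan receptor, rose in Tom+ sublining cells (1.60, adjusted p = 0.0306). In cycling cells 3 of 9 were lower, against 20.3% of all genes.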

How the data were processed

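Cells of 9 libraries had been sorted and sequenced with the 10x Genomics 5' kit (version 2). The deposited values are raw UMI counts per gene and barcode, made by the authors with Cell Ranger on GRCm38.p6 per the labels (version 3.0.2 in the headers of 5 injured libraries, not given for the other 4, whose gene lists have 2 columns and not 3). Neither how tdTom and H2BeGFP were added to the reference nor strand use in counting is given in the sources used here. Barcodes under 500 genes or 1000 UMIs, or over 10% mitochondrial UMIs, were left out, and the others were gated by marker lists. No doublets were removed, and leaving out the highest 5% of Scrublet scores was an alternative. Counts were summed per gate and library (at least 10 cells) and tested over all genes passing filterByExpr with edgeR 4.0.16 (TMM, quasi-likelihood, threshold 0.05), with the library as a block between gates and cycling states. DESeq2 1.42.0 was an alternative. The edgeR fits were tested on simulated data, and DESeq2 was not. Named genes were the 4 members, list genes past the threshold (at most 4 a list) and the 5 most similar genes, of which 1 is not reported here. Members and lists were chosen with earlier results of these data known. Replicates are libraries, each of 1 mouse within a sort, and lineage tests do not model the mice that both sorts share.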

Additional observations from a re-analysis of the deposited data

Results flagged for a closer look

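*Gdf5* in the stromal cells of Tom+ injured replicate 1 was at 2.68 CPM, far above the other 3 injured Tom+ libraries relative to their range. Of 16 such checks, about 1 in 20 would be singled out by chance. This library was also the deepest, and its share of cells with *Gdf5* after thinning to 4000 UMIs was 2.26%, against 0.179% to 0.440% in the other 3.

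H2BeGFP was at 572 CPM in the immune cells and at 980 CPM in the endothelial cells of the Tom+ libraries, which enter no comparison. *Pdgfra* was found in 1 cell of each gate, and the cause was not tested.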

How the results depend on the processing

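Of 646 values of 45 tested results, 583 kept their direction and side of the threshold, 30 newly passed, 16 no longer passed and 17 changed sign. Of 13 calls, 7 held under every alternative run. The 13 include tdTom between the lineages, which is a check of the sort, and *Gdf5* over gates, which passed the filter through the gates where it was higher. The cause of the other changes was not tested.

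Same-numbered replicates did not deviate together (correlations 0.0441 and 0.0799 between Tom+ groups, -0.0167 and 0.0207 between injured lineages), so the numbers, whose link to the shared mice is not given in the sources used here, were not taken as pairs. With the replicate number as a block, the injury effect in Tom+ sublining cells was -1.06 for *Pdgfra* (adjusted p = 0.0574) and -0.08 for tdTom. *Pdgfra* was at -0.06 between injured lineages and 0.07 for injury in lining cells.

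With the gene list format as a covariate, injury in Tom+ sublining cells gave -0.32 for tdTom and -1.37 for H2BeGFP, and in lining cells -0.13 for H2BeGFP. These effects rest on Tom+ injured replicate 1 as the only injured library. With the same covariate, the difference between the injury effects of the 2 lineages was -0.01 for H2BeGFP. Without the filter on low counts, injury on *Pdgfra* in Tom-GFP+ passed (-1.10), while injury on *Pdgfra* in lining cells was 0.04. In that setting H2BeGFP passed in lining (-0.85), injury-induced (-0.58), osteoblast-lineage (-1.25) and tenocyte-lineage cells (-2.35). So did *Pdgfra* in osteoblast-lineage (-0.87), tenocyte-lineage (-1.70) and cycling cells (-0.36). H2BeGFP between injured lineages also passed (-0.87), which is a check of the sort on GFP and not a result. With stricter cells, lining tdTom was 0.35, H2BeGFP in lining, injury-induced and osteoblast-lineage cells -0.89, -0.66 and -1.48, osteoblast-lineage *Pdgfra* -1.11 (all passing) and mural *Gdf5* 2.78 (not passing). Stricter gates gave -1.02, -0.77 and -1.87 for H2BeGFP in those gates, -1.25 for *Pdgfra* and -1.73 for *Gdf5* in osteoblast-lineage cells. Gating thinned cells gave -0.98 and -1.67 for H2BeGFP in lining and osteoblast-lineage cells, and -1.27 for *Pdgfra* and -2.02 for *Gdf5* in the latter. Without the highest doublet scores the same gates had H2BeGFP at -0.88 and -1.36 and *Gdf5* at 4.76 (no longer passing). With all stromal cells, tdTom between steady-state lineages was 6.16 (adjusted p = 0.106). DESeq2 gave 2.36 for tenocyte-lineage *Gdf5*.

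Leaving out each library gave, for injury in Tom+ sublining cells, -0.07 to 0.35 (tdTom) and -1.06 to -0.81 (*Pdgfra*), in Tom-GFP+ -1.13 to -1.05 (*Pdgfra*), for their difference -0.03 to 0.40 (H2BeGFP), between lineages -0.05 to 0.21 (injured) and -0.23 to 0.04 (steady state) for *Pdgfra*, and in lining cells -0.15 to 0.04 (*Pdgfra*). Against sublining cells it gave -0.98 to -0.66 (lining H2BeGFP), -0.82 to -0.62 (injury-induced *Pdgfra*), 4.39 to 5.89 (chondrocyte-lineage *Gdf5*), -2.23 to -0.83, 0.40 to 5.10 and -1.39 to -0.66 (osteoblast-lineage H2BeGFP, *Gdf5*, *Pdgfra*) and 2.88 to 4.00 (mural *Gdf5*). In cycling cells it gave -0.21 to 0.02 (H2BeGFP) and -0.50 to -0.23 (*Pdgfra*).

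Genes called ranged over the alternatives from 223 to 1974 (1016 as reported) for injury in Tom+ sublining, 32 to 1096 (333) in Tom-GFP+ sublining and 29 to 1317 (414) in lining cells, 0 to 46 (0) for the difference, 1 to 298 (1) and 1 to 299 (8) between lineages, 919 to 1904 (1537) for injury-induced, 1736 to 2625 (2570) for chondrocyte-lineage, 218 to 1310 (817) for osteoblast-lineage, 12 to 137 (21) for tenocyte-lineage, 1659 to 2572 (2432) for mural and 1343 to 2919 (2579) for cycling cells. Higher and lower calls were 1046 and 1524 in chondrocyte-lineage cells but 1367 and 1084 with RLE factors, 974 and 1458 in mural cells but 1231 and 1143, and 351 and 466 in osteoblast-lineage cells but 383 and 374. The median of all genes was -0.23, -0.13 and -0.12 there and -0.37 in tenocyte-lineage cells. Thinning lowered 20 of 28 shares of cells by at least the SD between libraries, or to outside the exact interval where a group had 1 library.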
